A study of Homo sapiens with 18 samples.

Results

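The interferon-stimulated genes described here are 45 genes listed as genes that interferon induces or that carry its signal, and looked up by symbol among the 60252 genes of the counts table. All 45 were found, and 43 held enough counts for a test. MX2 and XAF1 did not, with at most 7 counts of either gene in any library. Interferons are secreted proteins that cells release on sensing viral RNA or DNA. Type I interferons bind the receptor IFNAR1-IFNAR2, the kinases JAK1 and TYK2 then activate STAT2, and this joins IRF9 in the complex ISGF3, which binds a promoter sequence called the interferon-stimulated response element (ISRE). Epithelial cells can express many of these genes at a low, tonic level without added interferon. The labels name no interferon or other stimulus apart from the retroviral vector that all groups carry.

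The cells were MCF-10A, a breast epithelial line that is immortal but does not form tumours, grown as three-dimensional structures in the gel Matrigel and collected on day 8. A retroviral construct had been stably introduced. In the overexpression (OE) groups it coded for SRSF2, SRSF4, SRSF6, SRSF9 or TRA2B, proteins that regulate pre-mRNA splicing, and in Control it was the empty vector (PWZL). All groups therefore carry a retroviral vector and differ in its insert, and no group without a vector was analysed here. The 18 samples form 6 groups of 3. In SRSF4-OE, SRSF6-OE, TRA2B-OE and Control, replicates 1 and 2 share a library ID and barcode and were summed as 1 library, written replicate 1-2, which left 14 libraries: 3 each in SRSF2-OE and SRSF9-OE and 2 in each other group. Nothing in the labels says that the replicates were separate cultures. A p-value here therefore reflects how far the libraries of a group differ, and that spread may be technical.

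Libraries held 42959069 to 121601376 counts. The introduced factor reached 359 to 839 CPM (counts scaled to the TMM-normalised library size) in SRSF9-OE, against 92.4 to 95.4 CPM in Control, 168 and 187 CPM against 71.4 and 95.5 CPM in SRSF4-OE, 214 to 396 CPM against 176 and 204 CPM in SRSF2-OE, and 147 and 201 CPM against 105 and 106 CPM in TRA2B-OE. SRSF6 itself stood at 283 and 417 CPM in the libraries labelled SRSF6-OE and 239 and 399.95 CPM in Control, with no detectable rise, so a direction in SRSF6-OE below is a direction in the libraries with that label. The same limit holds for SRSF2-OE, where neither tool called SRSF2 and the lowest library, at 214 CPM, was near the 204 CPM of Control. DESeq2 called SRSF4, SRSF9 and TRA2B higher in their own groups, and it also called TRA2B higher in SRSF4-OE. EdgeR called no introduced factor in any contrast with Control, while its F test over the 5 OE groups called 1 of the 5 (adjusted p = 0.0168). All 5 factors had a higher fitted level than Control in each of the 5 contrasts, also where they were not introduced. Of 7 epithelial markers all 7 reached 1 CPM, with KRT5, a basal keratin, at 7079 CPM or more. Of 8 immune markers 2 did (CD14 and CD68): the leukocyte marker PTPRC stayed at or under 0.184 CPM, and IL3RA and CLEC4C, markers of plasmacytoid dendritic cells, were at 0. CD14 itself was at 2.23 to 5.52 CPM in OE libraries and 1.31 and 1.01 CPM in Control libraries, and DESeq2 called it higher in each contrast but SRSF9-OE. CD68 went the other way, and DESeq2 called it lower in SRSF4-OE and SRSF6-OE. Of these 2 immune markers, 1 was lower and 1 higher in each of the 5 contrasts. Of 7 fibroblast markers 3 reached 1 CPM (COL1A1, PDGFRB and DCN), with COL3A1 at or under 0.0448 CPM, and their sum was 160 to 433 CPM in OE libraries and 549.8 and 263 CPM in Control libraries. Of 5 endothelial markers 2 did (KDR and TEK), with CDH5 at or under 0.0197 CPM and CLDN5 at or under 0.0417 CPM. Summed over 8 cell division genes, the level was 181 to 1119 CPM in OE libraries and 173 and 414 CPM in Control libraries, and mitochondrial genes took 6.45% to 16.4% of CPM in OE libraries and 7.64% and 11.96% in Control libraries.

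The members covered a wide range of abundance. Divided by the length of each gene's merged exons, so that genes can be compared, mean levels over the 14 libraries were highest for IFITM3 at 104 CPM per kb, IFITM2 at 53.9, LGALS3BP at 49.2, IFI16 at 38.9 and STAT2 at 13.2 CPM per kb. Of the 45 members, 6 reached 10 CPM per kb, 27 reached 1 and 39 reached 0.1. Among the 43 members tested, 26 lay below the median of all genes tested, which was 2.59 CPM per kb. Well-known interferon-induced genes were spread over this range, with IFI6 at 3.33, ISG15 at 2.998, IFI44 at 2.402, IFIT1 at 0.464, MX1 at 0.113 and RSAD2 at 0.0347 CPM per kb.

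**Figure D1:**
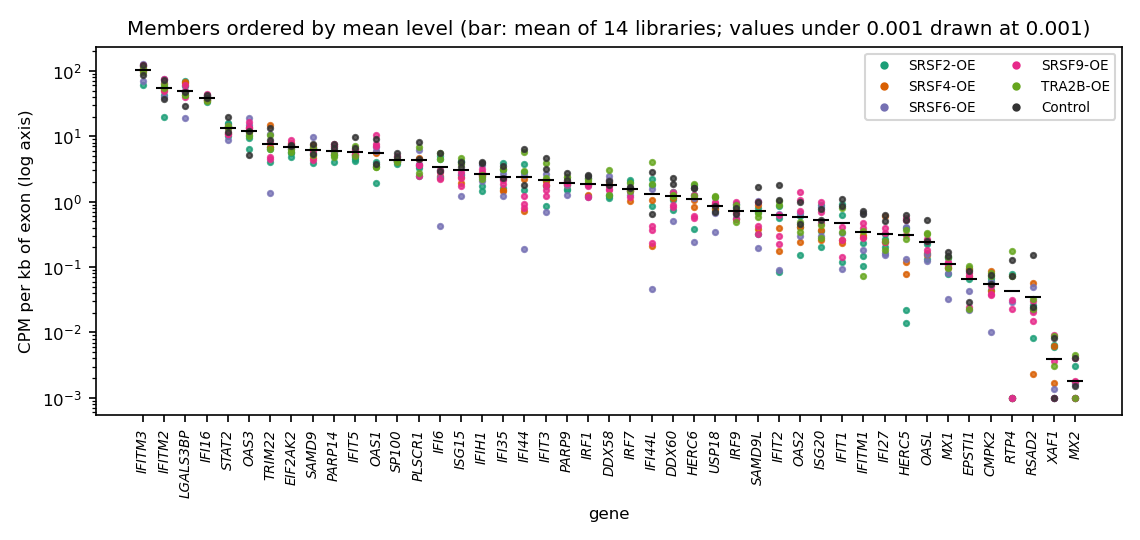
Level of each of the 45 members in CPM per kb of exon (vertical log axis), ordered by the mean over 14 libraries (bar), with 1 point per library coloured by group. IFITM3 is highest at 104 CPM per kb, and MX2 and XAF1, which were not tested, are lowest.

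The other genes of the pathway were measured as well. Of 12 interferon genes, IFNE, an interferon of epithelia, reached 1 CPM (0.288 to 1.15 CPM over the libraries), whereas IFNB1 stayed at or under 0.0113 CPM and IFNL1 and IFNL3 were at 0. All 6 receptor genes were expressed. IFNGR1, the ligand-binding chain for interferon gamma, stood at 131 to 273 CPM in OE libraries and 300.6 and 436 CPM in Control libraries, and IFNAR1 at 53.9 to 79.6 CPM in OE libraries and 70.6 and 75.8 CPM in Control libraries. None of the receptor, kinase, inhibitor or relay genes passed edgeR's test in any comparison. DESeq2 called IFNLR1, the receptor chain for interferon lambda, lower in SRSF6-OE (adjusted p = 0.0455) and STAT3 lower in SRSF4-OE (adjusted p = 0.0297).

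The promoters of many of the members carry the letters through which this pathway acts, and they are shown for some of the members described below that had a match. RefSeq promoter windows (GRCh38.p14, 250 bases before to 50 after the gene start) were given for 37 of the 45 members, and none for IRF7, USP18, IFIT2, OAS2, OASL, MX2, TRIM22 and IFITM2. The ISRE was searched as GAAANNGAAA on both strands, where the other strand reads TTTCNNTTTC, and overlapping matches were counted. It occurred in 25 of 37 members (67.6%), against 1195 of 27305 genes with a window (4.38%). A window with 2 or more matches was found for 14 of 37 members (37.8%), against 85 of 27305 genes (0.311%). The element through which interferon gamma acts, GAS, searched as TTCNNNGAA, which reads the same on both strands, occurred in 11 of 37 members (29.7%) and 9.38% of all genes. In some windows the 2 motifs share bases, as in IFI27. Neither was found in 8 members, among them IFI16, STAT2, HERC6 and SAMD9L.

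Capitals below mark the ISRE matches and, in DDX60, IFI27, PARP14, MX1 and IRF1, also the GAS match. MX1, PARP9, IFIT3, IFI27 and IFI44 have more than 1 window, of which 1 is shown. Both windows of IFI27 and both of IFI44 hold the same stretch, while the IFIT3 window not shown holds 2 other ISRE matches. An MX1 window not shown holds its own ISRE match, beginning at base 12 after the gene start, and another MX1 window holds neither motif. The PARP9 window not shown also holds neither.
IFIH1: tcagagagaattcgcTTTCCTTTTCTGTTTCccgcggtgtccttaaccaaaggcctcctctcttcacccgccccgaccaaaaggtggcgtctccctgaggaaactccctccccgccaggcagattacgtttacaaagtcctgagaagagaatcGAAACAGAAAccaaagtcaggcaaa
DDX60: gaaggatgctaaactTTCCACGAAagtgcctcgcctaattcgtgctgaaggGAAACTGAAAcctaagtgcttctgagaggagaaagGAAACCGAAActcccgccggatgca
ISG15: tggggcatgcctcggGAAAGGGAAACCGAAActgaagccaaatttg
HERC5: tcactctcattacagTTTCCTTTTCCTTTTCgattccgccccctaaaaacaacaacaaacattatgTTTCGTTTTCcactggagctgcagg
IFIT1: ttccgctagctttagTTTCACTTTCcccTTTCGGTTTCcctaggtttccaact
IFIT3: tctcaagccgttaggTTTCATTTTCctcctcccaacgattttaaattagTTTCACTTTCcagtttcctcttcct
IFIT5: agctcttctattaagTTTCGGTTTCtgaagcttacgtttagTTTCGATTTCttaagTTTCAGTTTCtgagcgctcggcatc
OAS3: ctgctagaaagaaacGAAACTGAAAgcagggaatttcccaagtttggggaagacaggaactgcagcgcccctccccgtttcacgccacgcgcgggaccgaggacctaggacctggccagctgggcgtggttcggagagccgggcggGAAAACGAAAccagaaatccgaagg
MX1: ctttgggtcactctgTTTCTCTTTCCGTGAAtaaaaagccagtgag
PARP9: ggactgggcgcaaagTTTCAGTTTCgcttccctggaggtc
PARP14: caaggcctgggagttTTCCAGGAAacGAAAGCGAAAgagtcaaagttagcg
IFI27: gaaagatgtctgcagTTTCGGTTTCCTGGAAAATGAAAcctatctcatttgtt
IFI44: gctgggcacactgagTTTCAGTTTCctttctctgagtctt
IFI44L: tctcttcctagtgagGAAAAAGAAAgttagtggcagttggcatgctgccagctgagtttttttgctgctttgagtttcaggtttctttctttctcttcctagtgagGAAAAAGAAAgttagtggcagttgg
IFI6: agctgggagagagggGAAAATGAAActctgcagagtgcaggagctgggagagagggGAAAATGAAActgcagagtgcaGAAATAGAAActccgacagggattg
IRF1: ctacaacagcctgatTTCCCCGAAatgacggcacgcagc
The stretches read 5′ to 3′ along the gene and are at chr2:162318681-162318858 (minus strand) for IFIH1, chr4:168318781-168318891 (minus strand) for DDX60, chr1:1013369-1013414 (plus strand) for ISG15, chr4:88456979-88457069 (plus strand) for HERC5, chr10:89392492-89392544 (plus strand) for IFIT1, chr10:89327826-89327899 (plus strand) for IFIT3, chr10:89414508-89414588 (plus strand) for IFIT5, chr12:112938316-112938486 (plus strand) for OAS3, chr21:41431839-41431884 (plus strand) for MX1, chr3:122564317-122564356 (minus strand) for PARP9, chr3:122680784-122680834 (plus strand) for PARP14, chr14:94110613-94110665 (plus strand) for IFI27, chr1:78649756-78649795 (plus strand) for IFI44, chr1:78620269-78620399 (plus strand) for IFI44L, chr1:27672261-27672363 (minus strand) for IFI6 and chr5:132490874-132490912 (minus strand) for IRF1. IFI6 carries 3 ISRE matches, IFIT5 carries 3 in a stretch of 81 bases, and the IRF1 stretch has a GAS match and no ISRE. A match is a description of letters, not evidence that a factor was bound in these cells.

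**Figure D2:**
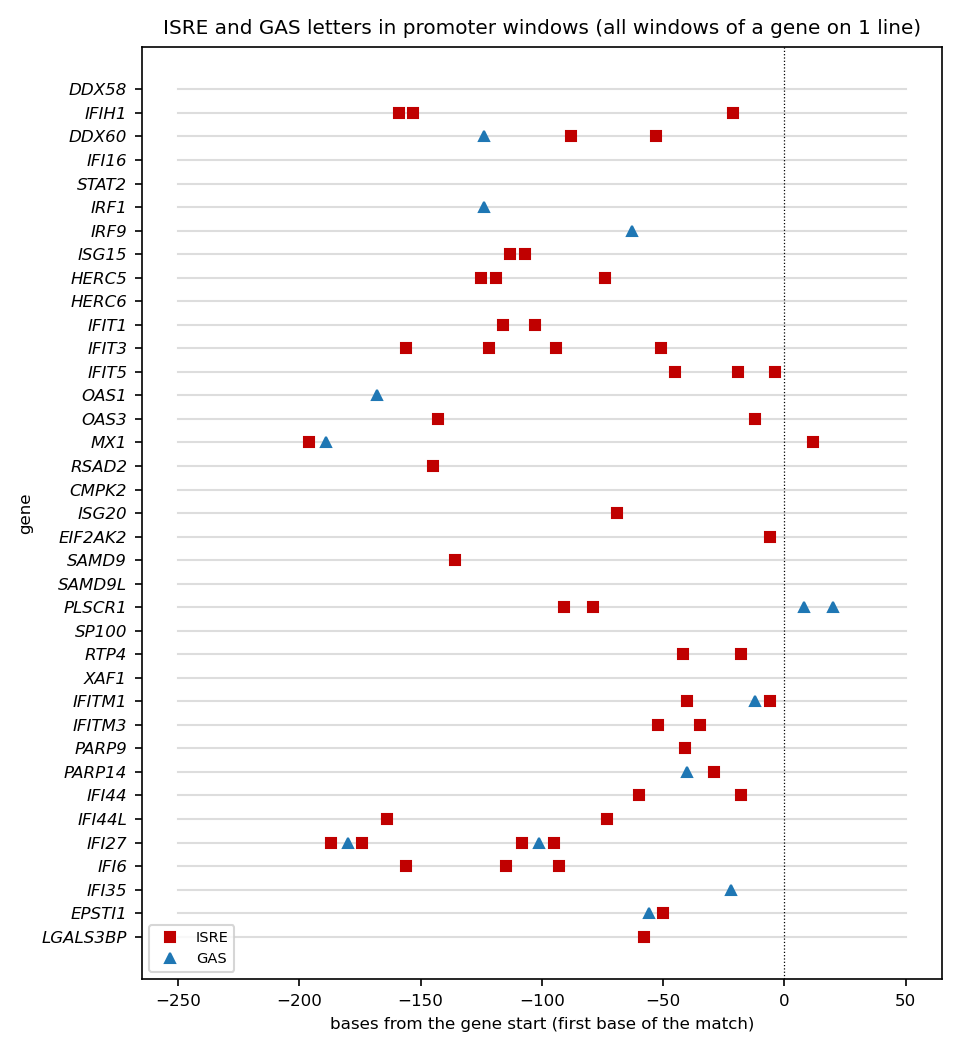
Positions of ISRE matches (squares) and GAS matches (triangles) in the promoter windows of the 37 members with a window, in bases from the gene start (horizontal axis, start at 0). The ISRE matches of IFIT1, IFIT3 and IFI6 lie before the start, 1 of the 3 in IFIT5 begins 4 bases before it, and DDX58, IFI16, STAT2, HERC6, CMPK2, SAMD9L, SP100 and XAF1 show neither motif.

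In each of the 5 contrasts with Control more members had a lower than a higher level, while no single member passed edgeR's quasi-likelihood test with Benjamini-Hochberg adjustment over all 21326 genes tested. Log2 fold changes come from that fit, which holds a term for the label set (the 4 summed libraries carry a library ID, the other 10 a number), so that they can differ from a ratio of mean CPM. The 5 contrasts share the same 2 Control libraries. Whatever those 2 libraries hold therefore enters all 5, and the contrasts are not independent of each other.

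In SRSF2-OE, 32 of 43 members were lower and 11 higher than in Control, with a median log2 fold change of -0.41, against 0.04 over all genes tested, of which 47.0% were lower. By edgeR 0 members were called, as were 0% of all genes, and 9 members had an unadjusted p under 0.05, all lower (20.9% of members and 13.4% of all genes). DESeq2 called IFIH1 and IFIT5, both lower, and 2.37% of all genes. All 3 SRSF2-OE libraries lay below both Control libraries for 19 members (17.5% of all genes) and above both for 0 members (16.7% of all genes).

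In SRSF4-OE, 37 of 43 members were lower, with a median log2 fold change of -0.54, against -0.04 over all genes, of which 53.1% were lower. EdgeR called 0 members and 0% of all genes. An unadjusted p under 0.05 was reached by 9 members, 8 of them lower and 1, OAS3, higher (20.9% of members, 14.9% of all genes). DESeq2 called 0 members and 2.7% of all genes. Both SRSF4-OE libraries were below both Control libraries for 24 members (27.2% of all genes) and above both for 1 member, LGALS3BP (25.3% of all genes). Without SRSF4-OE replicate 1-2 the median log2 fold change of the members was -0.27.

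In the libraries labelled SRSF6-OE, 38 of 43 members were lower, with a median log2 fold change of -0.63, against -0.03 over all genes, of which 52.1% were lower. EdgeR called 0 members and 0.00469% of all genes. An unadjusted p under 0.05 was reached by 15 members, 14 of them lower (34.9% of members, 19.5% of all genes). DESeq2 called 9 members, with DDX60, IFI27, IFI44, IFI6, IFIT3, MX1, OASL and PARP9 lower and OAS3 higher, and 5.81% of all genes. Both libraries were below both Control libraries for 21 members (24.4% of all genes) and above both for 2, DDX58 and OAS3 (22.8% of all genes). The 2 SRSF6-OE libraries differed from each other: replicate 3 held the lowest level of all 14 libraries for 20 members and replicate 1-2 for 1. The same counts over all genes are not given here. Without replicate 3 the median log2 fold change of the members was -0.34, and without replicate 1-2 it was -1.21.

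In SRSF9-OE, 33 of 43 members were lower, with a median log2 fold change of -0.29, against 0.00 over all genes, of which 49.8% were lower. EdgeR called 0 members and 0% of all genes, and 1 member, IFI27, had an unadjusted p under 0.05 (2.33% of members, 4.47% of all genes). DESeq2 called 0 members and 0.0703% of all genes. All 3 libraries were below both Control libraries for 22 members (17.6% of all genes) and above both for 2, USP18 and OAS3 (16.5% of all genes). The median of the members was -0.19 without Control replicate 1-2, -0.43 without SRSF6-OE replicate 1-2 and -0.44 without SRSF6-OE replicate 3.

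In TRA2B-OE, 29 of 43 members were lower, with a median log2 fold change of -0.18, against 0.00 over all genes, of which 50.1% were lower. EdgeR called 0 members and 0.00938% of all genes, and 5 members had an unadjusted p under 0.05, all lower (11.6% of members, 12% of all genes), a share near that of all genes. DESeq2 called IFI27, lower, and 2.12% of all genes. Both libraries were below both Control libraries for 15 members (18.2% of all genes) and above both for 1, USP18 (18.3% of all genes). The median of the members was 0.01 without TRA2B-OE replicate 1-2, -0.43 without TRA2B-OE replicate 3 and -0.28 without Control replicate 1-2.

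With the 5 OE groups averaged, 38 of 43 members were lower than in Control, with a median log2 fold change of -0.39, against -0.02 over all genes, of which 51.5% were lower. EdgeR called 0 members and 0% of all genes. An unadjusted p under 0.05 was reached by 15 members, 14 of them lower (34.9% of members, 16% of all genes). DESeq2 called IFI27 and IFIT5, both lower, and 3.34% of all genes. All 12 OE libraries were below both Control libraries for 5 members, IFIH1, DDX60, IRF1, IFIT2 and MX1 (3.87% of all genes), and above both for 0 members (4.31% of all genes). The F test over the 5 OE groups, which uses no contrast with Control, called 0 members by edgeR (0.0375% of all genes). It gave 8 members an unadjusted p under 0.05 (18.6% of members, 11% of all genes), and DESeq2 called 5, IFI44, IFI44L, OAS1, OAS3 and PARP14 (4.19% of all genes).

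**Figure D3:**
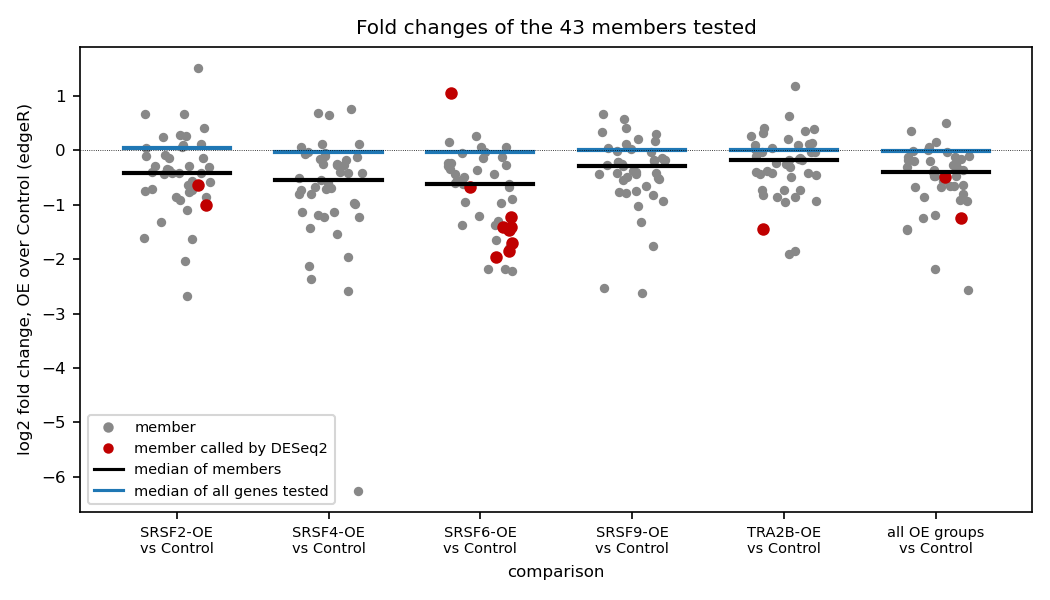
Log2 fold change over Control from edgeR (vertical axis) of the 43 members tested, 1 point each, for the 5 contrasts and the average of the OE groups, with the median of the members (black bar) and of all 21326 genes tested (blue bar). Red points are members called by DESeq2; the black bars lie below the blue bars, at -0.63 against -0.03 in SRSF6-OE and -0.18 against 0.00 in TRA2B-OE.

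Control replicate 1-2 held the highest level for 16 of the 43 members, and how often it did so over all genes is not given here. The median deviation of the members from their own mean on the log2(CPM + 0.5) scale was 0.46 in Control replicate 1-2 and 0.21 in Control replicate 3. Over the 12 OE libraries it ran between -0.55, in SRSF6-OE replicate 3, and 0.13, in TRA2B-OE replicate 3. Single libraries of SRSF4-OE, SRSF6-OE and TRA2B-OE were also set against the Control library of their own label set. In SRSF4-OE replicates 1-2 and 3, 33 and 33 of 43 members were lower (52.1% and 50.9% of all genes). In SRSF6-OE it was 34 and 36 members (52.5% and 50.9% of all genes). In TRA2B-OE it was 34 and 26 members. The share of all genes for these single-library ratios is not given here, and in the fit to all 14 libraries 50.1% of all genes were lower. The fit without TRA2B-OE replicate 1-2 gave a median of the members of 0.01. Other lists moved in the 5 contrasts with Control. All 8 cell division genes had a higher level than Control in each of the 5, with medians over the list between 0.42 (SRSF9-OE) and 1.67 (SRSF6-OE) on the log2 scale. DESeq2 called AURKA and TPX2, mitotic genes, higher in SRSF4-OE and SRSF6-OE, and MKI67 higher in SRSF6-OE. The endothelial marker sum was 4.35 to 15.5 CPM in OE libraries, below the 26.4 and 20.4 CPM of Control, and rested on KDR, a receptor for VEGF, at 2.24 to 12.5 CPM in OE libraries and 26.2 and 20.1 CPM in Control. DESeq2 called KDR lower in SRSF6-OE (adjusted p = 0.0314) and TRA2B-OE (adjusted p = 0.0194). Of the 2 endothelial markers tested, 1 was lower and 1 higher in each of the 5 contrasts, so the sum does not describe the list. The part of cell division, these markers or the label set in the members' differences was not tested.

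**Figure D4:**
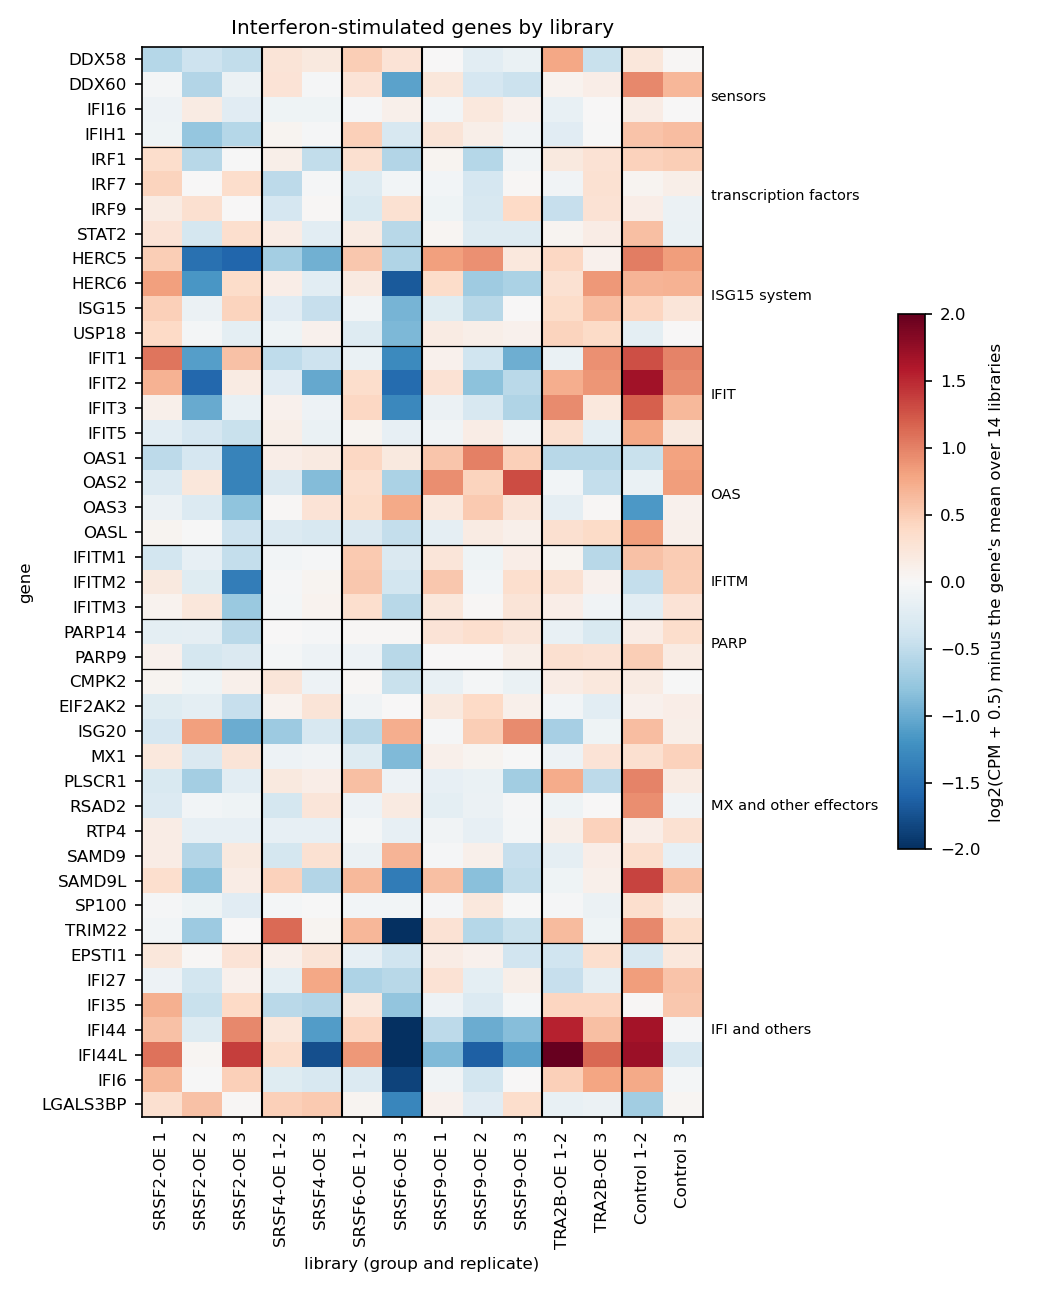
Deviation of each member from its own mean on the log2(CPM + 0.5) scale (colour; red above, blue below) for the 43 members tested (rows, by role) and the 14 libraries (columns, OE groups left of Control). The Control columns are mostly red, with medians of 0.46 and 0.21, and SRSF6-OE replicate 3 is the bluest column, with a median of -0.55.

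The sensors of viral nucleic acid were represented by IFIH1 (MDA5, a sensor of long double-stranded RNA), DDX58 (RIG-I, a sensor of RNA ends), DDX60, a helicase linked to these sensors, and IFI16, a DNA sensor. IFIH1 was at 12.4, 7.51 and 8.77 CPM in SRSF2-OE, 13.7 and 13.05 in SRSF4-OE, 18.5 and 10.4 in SRSF6-OE, 15.97, 14.3 and 12.5 in SRSF9-OE, 11.2 and 13.1 in TRA2B-OE, and 19.7 and 20.5 in Control. Each of the 12 OE libraries lay below both Control libraries, with SRSF2-OE lowest as a group. Its log2 fold change was -1.001 ± 0.28 in SRSF2-OE (adjusted p = 0.212 by edgeR and 0.0474 by DESeq2) and -0.65 ± 0.22 over the 5 OE groups (adjusted p = 0.225 by edgeR). Its promoter stretch above holds 3 ISRE matches. DDX60 was at 7.58, 5.04 and 7.13 CPM in SRSF2-OE, 9.53 and 7.67 in SRSF4-OE, 9.47 and 3.42 in SRSF6-OE, 9.21, 6.05 and 5.63 in SRSF9-OE, 8.17 and 8.57 in TRA2B-OE, and 15.6 and 12.7 in Control. Again no OE library reached Control, and SRSF6-OE replicate 3 was lowest. The log2 fold change in SRSF6-OE was -1.22 ± 0.38 (adjusted p = 0.177 by edgeR and 0.0424 by DESeq2). IFI16, the most abundant sensor, was at 192, 229.7 and 176 CPM in SRSF2-OE, 192 and 193 in SRSF4-OE, 202 and 221 in SRSF6-OE, 198, 237 and 218 in SRSF9-OE, 186 and 207 in TRA2B-OE, and 228 and 206 in Control. Its groups overlapped throughout, except that SRSF4-OE lay below Control, and its log2 fold changes ran from -0.17 to -0.01 over the 5 contrasts.

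Among the transcription factors of the pathway, 2 of 4 were lower in SRSF2-OE, 4 of 4 in SRSF4-OE, SRSF6-OE and SRSF9-OE and 3 of 4 in TRA2B-OE, none past a test. STAT2, which joins IRF9 in ISGF3, was at 95.3, 61.3 and 98.96 CPM in SRSF2-OE, 87.7 and 67.99 in SRSF4-OE, 88.1 and 53.2 in SRSF6-OE, 81.3, 65.8 and 65.9 in SRSF9-OE, 82.1 and 87.3 in TRA2B-OE, and 119.5 and 71.4 in Control. The 2 Control libraries lay far apart, and 5 of the 12 OE libraries were below both of them, among them SRSF9-OE replicates 2 and 3. IRF1, a factor induced by interferon gamma through a GAS element, was at 18.1, 9.41 and 13.99 CPM in SRSF2-OE, 15.3 and 9.88 in SRSF4-OE, 17.7 and 9.21 in SRSF6-OE, 14.6, 9.27 and 13.3 in SRSF9-OE, 16.2 and 17.4 in TRA2B-OE, and 19.6 and 20.03 in Control. Every OE library lay below both Control libraries, by little in SRSF2-OE replicate 1, and the log2 fold change over the OE groups was -0.48 ± 0.26 (adjusted p = 0.376 by edgeR). IRF1 has exons that overlap a gene on the other strand, C5orf56 at a mean of 1.08 CPM, in the annotation.

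ISG15 is a ubiquitin-like protein that is attached to other proteins by the ligase HERC5 and removed by USP18, and HERC6 is a relative of HERC5. ISG15 itself was at 3.92, 2.43 and 3.85 CPM in SRSF2-OE, 2.22 and 1.81 in SRSF4-OE, 2.53 and 1.16 in SRSF6-OE, 2.19, 1.65 and 2.68 in SRSF9-OE, 3.602 and 4.39 in TRA2B-OE, and 3.801 and 3.24 in Control. Its exons overlap AL645608.3, at a mean of 0.633 CPM, on the other strand, so the level of ISG15 is uncertain. HERC5 varied widely, at 1.89, 0.107 and 0.0675 CPM in SRSF2-OE, 0.564 and 0.375 in SRSF4-OE, 1.98 and 0.624 in SRSF6-OE, 2.52, 2.73 and 1.46 in SRSF9-OE, 1.77 and 1.3002 in TRA2B-OE, and 2.96 and 2.53 in Control. In SRSF2-OE replicates 2 and 3 these values rest on 5 and 3 counts, while SRSF2-OE replicate 1, in which SRSF2 itself was 214 CPM, had 94 counts and lay among the other OE groups. With all libraries the log2 fold change of HERC5 in SRSF2-OE was -1.64 ± 1.03 (adjusted p = 0.511 by edgeR). Without SRSF2-OE replicate 1 it was -4.60 ± 0.56, and edgeR called it (adjusted p = 0.0168; 0.325% of all genes), as did the F test over the OE groups (adjusted p = 0.0319; 0.254% of all genes). Leaving out the SRSF2-OE library that differed most removes much of the spread of that group, so these calls depend on that choice. A link between HERC5 and the SRSF2 level was not tested. Among the fits that leave out 1 library, no other member was called. USP18 went the other way in some groups, at 2.53, 1.73 and 1.51 CPM in SRSF2-OE, 1.66 and 1.94 in SRSF4-OE, 1.41 and 0.732 in SRSF6-OE, 2.07, 1.99 and 1.94 in SRSF9-OE, 2.62 and 2.48 in TRA2B-OE, and 1.499 and 1.81 in Control. SRSF9-OE and TRA2B-OE lay above and SRSF6-OE below both Control libraries, and none of these differences passed a test. Such groups on opposite sides of Control were seen for 2 members, USP18 and DDX58, and for 6.93% of all genes.

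The 4 IFIT genes encode proteins that bind viral RNA and lie next to each other on chromosome 10. All 4 were lower in each of the 5 contrasts, with medians over the 4 between -0.43 (TRA2B-OE) and -1.80 (SRSF6-OE). IFIT5 was at 19.6, 17.97 and 16.6 CPM in SRSF2-OE, 24.9 and 20.9 in SRSF4-OE, 23.8 and 20.4 in SRSF6-OE, 21.8, 25.5 and 21.9 in SRSF9-OE, 28.8 and 19.8 in TRA2B-OE, and 39.6 and 26.3 in Control. All OE libraries lay below both Control libraries except TRA2B-OE replicate 1-2, and Control replicate 1-2 was highest. For IFIT5 the log2 fold change was -0.64 ± 0.16 in SRSF2-OE (adjusted p = 0.188 by edgeR and 0.0213 by DESeq2) and -0.48 ± 0.13 over the OE groups (adjusted p = 0.176 by edgeR and 0.0322 by DESeq2). IFIT3 was at 5.57, 2.305 and 4.57 CPM in SRSF2-OE, 5.46 and 4.73 in SRSF4-OE, 6.97 and 1.81 in SRSF6-OE, 4.67, 4.02 and 3.21 in SRSF9-OE, 10.3 and 5.99 in TRA2B-OE, and 12.3 and 8.34 in Control. TRA2B-OE overlapped with Control and the other groups lay below it, with a log2 fold change in SRSF6-OE of -1.41 ± 0.47 (adjusted p = 0.184 by edgeR and 0.0474 by DESeq2). IFIT1 was at 4.24, 0.555 and 2.88 CPM in SRSF2-OE, 1.09 and 1.19 in SRSF4-OE, 1.55 and 0.431 in SRSF6-OE, 1.89, 1.21 and 0.647 in SRSF9-OE, 1.56 and 3.74 in TRA2B-OE, and 4.99 and 3.98 in Control. IFIT2 was at 3.54, 0.341 and 2.29 CPM in SRSF2-OE, 1.65 and 0.7295 in SRSF4-OE, 2.695 and 0.366 in SRSF6-OE, 2.55, 0.915 and 1.22 in SRSF9-OE, 3.65 and 4.14 in TRA2B-OE, and 7.49 and 4.297 in Control. For both, SRSF2-OE replicate 2 and SRSF6-OE replicate 3 were the lowest libraries of their groups. In IFIT1, SRSF2-OE replicate 1 overlapped with Control, and in IFIT2 no OE library did. IFIT2 shares exonic sequence with LIPA on the other strand, at a mean of 102 CPM, and no source used here says whether counting used strand, so its level is uncertain.

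**Figure D5:**
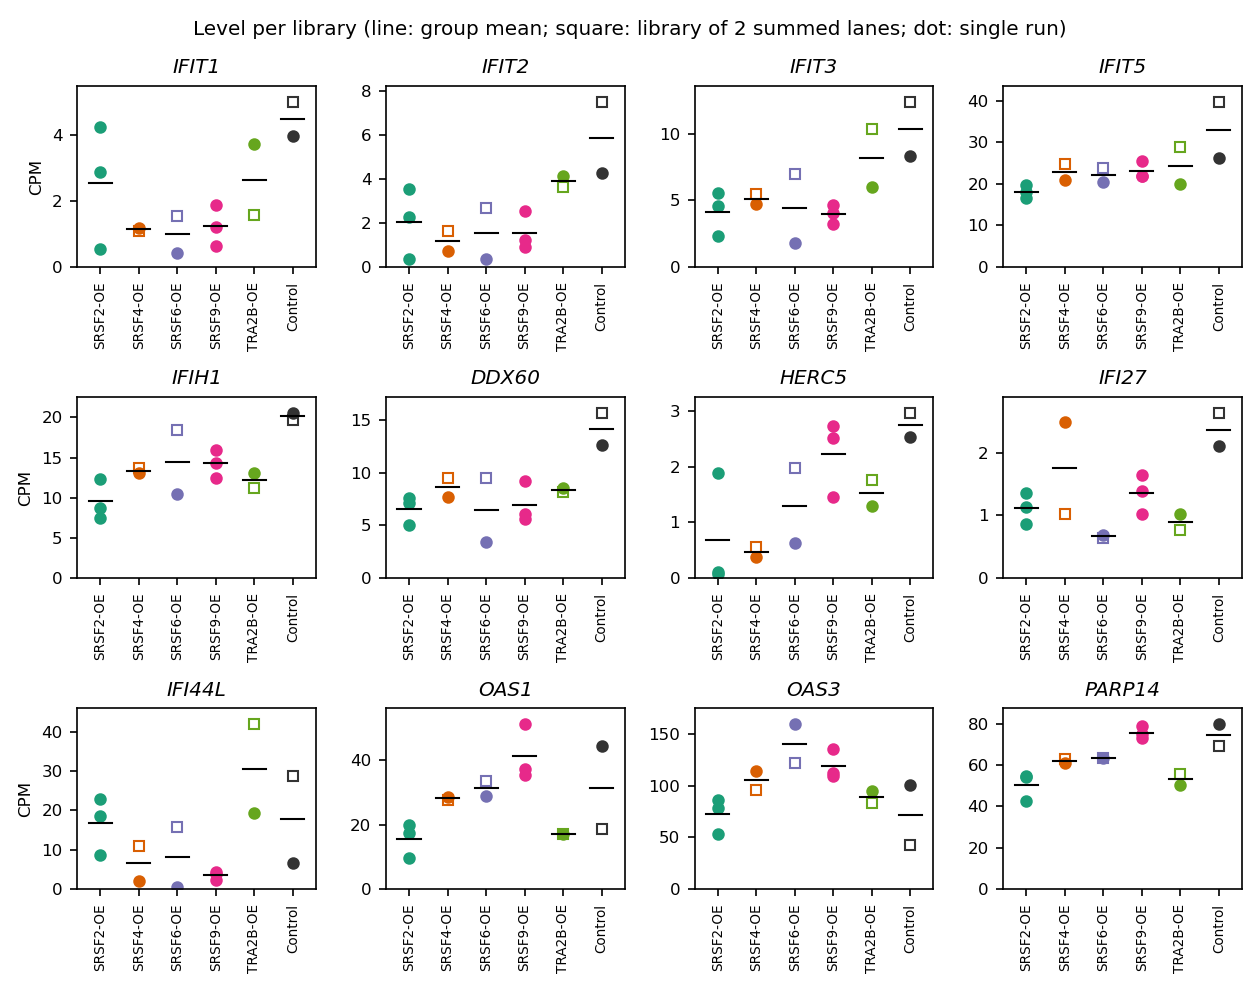
Level in CPM (vertical axis, from 0) of 12 members in each library, by group, with Control at the right; lines are group means, squares libraries of 2 summed lanes and dots single runs. IFIH1, DDX60 and IFIT2 lie below both Control libraries in all 12 OE libraries, while OAS3 lies above both in SRSF6-OE and SRSF9-OE.

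The OAS genes encode enzymes that make 2-5A, the activator of RNase L, and OASL is an inactive relative. They did not move as a group: 4 of 4 were lower in SRSF2-OE, 3 in SRSF4-OE and TRA2B-OE, 2 in SRSF6-OE and 1 in SRSF9-OE. OAS3 was at 86.6, 78.1 and 53.5 CPM in SRSF2-OE, 96.03 and 114 in SRSF4-OE, 122 and 159 in SRSF6-OE, 109, 136 and 112 in SRSF9-OE, 83.3 and 95.4 in TRA2B-OE, and 42.2 and 100.3 in Control. The 2 Control libraries differed widely, and both libraries labelled SRSF6-OE lay above them. The log2 fold change in SRSF6-OE was 1.06 ± 0.29 (adjusted p = 0.159 by edgeR and 0.0226 by DESeq2). Against the Control library of the same label set, the log2 ratio was 1.52 for SRSF6-OE replicate 1-2 and 0.67 for replicate 3. OAS1 was at 17.4, 19.8 and 9.69 CPM in SRSF2-OE, 27.7 and 28.7 in SRSF4-OE, 33.7 and 29.04 in SRSF6-OE, 37.1, 51.1 and 35.3 in SRSF9-OE, 17.1 and 17.001 in TRA2B-OE, and 18.5 and 44.4 in Control. SRSF9-OE was the highest OE group and SRSF2-OE and TRA2B-OE the lowest, without overlap, and the F test over the OE groups gave an adjusted p of 0.364 by edgeR and 0.0157 by DESeq2. OAS1 overlaps AC004551.1, at a mean of 3.02 CPM, on the other strand. For OAS3 the F test gave an adjusted p of 0.389 by edgeR and 0.0495 by DESeq2. OASL was at 0.844, 0.7895 and 0.472 CPM in SRSF2-OE, 0.575 and 0.542 in SRSF4-OE, 0.555 and 0.431 in SRSF6-OE, 0.647, 0.955 and 0.887 in SRSF9-OE, 1.12 and 1.18 in TRA2B-OE, and 1.81 and 0.883 in Control. It was lowest in SRSF6-OE replicate 3 and SRSF2-OE replicate 3, with a log2 fold change of -1.42 ± 0.401 in SRSF6-OE (adjusted p = 0.166 by edgeR and 0.0356 by DESeq2).

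The IFITM proteins sit in membranes and block virus entry, and IFITM3 and IFITM2 are the 2 most abundant members. IFITM3 was at 144, 161 and 81.95 CPM in SRSF2-OE, 133 and 145 in SRSF4-OE, 174 and 93.7 in SRSF6-OE, 161, 139.8 and 165 in SRSF9-OE, 150.4 and 131 in TRA2B-OE, and 119 and 167 in Control. IFITM2 was at 90.6, 66.9 and 29.9 CPM in SRSF2-OE, 78.04 and 81.9 in SRSF4-OE, 115 and 61.2 in SRSF6-OE, 115, 76.1 and 100.3 in SRSF9-OE, 97.3 and 83.98 in TRA2B-OE, and 56.8 and 111 in Control. In both genes all groups overlapped with Control, and the log2 fold changes of IFITM3 were between -0.12 and 0.17. The sparse member of the family, IFITM1, was at 0.161, 0.256 and 0.112 CPM in SRSF2-OE, 0.316 and 0.333 in SRSF4-OE, 0.716 and 0.194 in SRSF6-OE, 0.503, 0.298 and 0.431 in SRSF9-OE, 0.386 and 0.0788 in TRA2B-OE, and 0.78002 and 0.706 in Control. TRA2B-OE and SRSF2-OE were lowest, the log2 fold change was -1.85 ± 0.62 in TRA2B-OE (adjusted p = 0.307 by edgeR), and the lowest library held 4 counts. The exons of IFITM1 and IFITM2 overlap on the same strand, so reads of the abundant gene could be counted for the other.

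PARP9 and PARP14 are ADP-ribosyltransferases of the macrodomain group, and PARP9 works with DTX3L. PARP9 was at 18.2, 13.3 and 13.9 CPM in SRSF2-OE, 16.6 and 15.9 in SRSF4-OE, 15.9 and 11.5 in SRSF6-OE, 17.2, 17.3 and 18.6 in SRSF9-OE, 21.4 and 21.1 in TRA2B-OE, and 24.2 and 19.4 in Control. SRSF6-OE replicate 3 and SRSF2-OE replicate 2 were lowest, and the log2 fold change in SRSF6-OE was -0.68 ± 0.197 (adjusted p = 0.168 by edgeR and 0.0396 by DESeq2). PARP9 overlaps DTX3L, at a mean of 43.2 CPM, on the other strand in the annotation, so the level of PARP9 is uncertain, and DESeq2 called DTX3L lower in SRSF2-OE (adjusted p = 0.0317). PARP14 was at 54.2, 54.9 and 42.7 CPM in SRSF2-OE, 63.01 and 61.1 in SRSF4-OE, 63.5 and 63.4 in SRSF6-OE, 75.03, 78.8 and 73.4 in SRSF9-OE, 55.99 and 50.3 in TRA2B-OE, and 69.4 and 79.8 in Control. SRSF2-OE and TRA2B-OE lay below the other 3 OE groups and SRSF9-OE overlapped with Control. The log2 fold change in SRSF2-OE was -0.56 ± 0.15 (adjusted p = 0.207 by edgeR), and the F test over the OE groups gave 0.3599 by edgeR and 0.0336 by DESeq2.

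Of the MX and other effectors, 11 of 13 were tested, and 9 to 10 of the 11 were lower in each contrast. MX1, a GTPase that traps viral components, was at 1.17, 0.683 and 1.21 CPM in SRSF2-OE, 0.846 and 0.875 in SRSF4-OE, 0.707 and 0.2798 in SRSF6-OE, 1.04, 0.995 and 0.935 in SRSF9-OE, 0.842 and 1.24 in TRA2B-OE, and 1.29 and 1.47 in Control. All 12 OE libraries were below both Control libraries, most in SRSF6-OE replicate 3, which held 13 counts. The log2 fold change in SRSF6-OE was -1.46 ± 0.45 (adjusted p = 0.176 by edgeR and 0.0466 by DESeq2). MX1 overlaps AP001610.1, at a mean of 0.136 CPM, on the other strand. TRIM22, a ubiquitin ligase with antiviral activity, ranged widely, at 39.05, 24.1 and 40.7 CPM in SRSF2-OE, 88.8 and 41.999 in SRSF4-OE, 64.1 and 8.22 in SRSF6-OE, 49.3, 26.9 and 29.5 in SRSF9-OE, 62.99 and 38.1 in TRA2B-OE, and 79.4 and 52.4 in Control. SRSF6-OE replicate 3 was lowest and SRSF4-OE replicate 1-2 highest, and the 2 libraries of SRSF6-OE lay on both sides of Control replicate 3. RTP4, a chaperone for receptors, was at the edge of detection: both SRSF4-OE libraries held 0 counts, which allows up to 0.0338 and 0.0625 CPM, against 15 and 10 counts (0.115 and 0.196 CPM) in Control. The fitted fold change of RTP4 in SRSF4-OE depends on the prior count and is not given. RTP4 was at 0.121, 0 and 0 CPM in SRSF2-OE and 0.0448 and 0 in SRSF6-OE. It was at 0.036, 0 and 0.0479 CPM in SRSF9-OE and 0.112 and 0.276 in TRA2B-OE. EIF2AK2 (PKR), a kinase that stops translation on binding double-stranded RNA, was the most abundant effector per kb after TRIM22, at 52.2 to 94.5 CPM in OE libraries and 76.6 and 78.5 CPM in Control. It overlaps GPATCH11, at a mean of 13.1 CPM, and AC007899.1, at a mean of 1.7 CPM, on the other strand.

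The remaining members include small interferon-induced proteins of the IFI series. IFI27, a mitochondrial protein, was the member with the smallest p over the OE groups and was at 1.13, 0.854 and 1.35 CPM in SRSF2-OE, 1.02 and 2.48 in SRSF4-OE, 0.636 and 0.689 in SRSF6-OE, 1.64, 1.01 and 1.39 in SRSF9-OE, 0.761 and 1.02 in TRA2B-OE, and 2.62 and 2.099 in Control. All OE libraries but SRSF4-OE replicate 3 were below both Control libraries, with SRSF6-OE lowest. Fold changes on the log2 scale were -1.86 ± 0.42 in SRSF6-OE (adjusted p = 0.138 by edgeR and 0.00436 by DESeq2) and -1.45 ± 0.42 in TRA2B-OE (adjusted p = 0.265 by edgeR and 0.0491 by DESeq2). Over the OE groups it was -1.24 ± 0.301 (adjusted p = 0.159 by edgeR and 0.0173 by DESeq2). These levels rest on 32 to 119 counts per OE library and 343 and 107 counts in Control.

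IFI44 and IFI44L, neighbours on chromosome 1, followed another order. IFI44L was at 18.4, 8.68 and 22.9 CPM in SRSF2-OE, 10.9 and 2.13 in SRSF4-OE, 15.8 and 0.474 in SRSF6-OE, 4.35, 2.39 and 3.74 in SRSF9-OE, 41.8 and 19.2 in TRA2B-OE, and 28.8 and 6.65 in Control. IFI44 was at 5.89, 3.03 and 7.78 CPM in SRSF2-OE, 4.48 and 1.46 in SRSF4-OE, 5.22 and 0.387 in SRSF6-OE, 2.45, 1.63 and 1.85 in SRSF9-OE, 11.9 and 5.91 in TRA2B-OE, and 12.9 and 3.67 in Control. Both TRA2B-OE libraries lay above the lower Control library in both genes, as did all 3 SRSF2-OE libraries in IFI44L and 2 of them in IFI44. All 3 SRSF9-OE libraries and SRSF6-OE replicate 3 lay below both Control libraries. The F test over the OE groups gave IFI44L an adjusted p of 0.291 by edgeR and 4.13e-05 by DESeq2, and IFI44 0.3501 and 0.000771. In SRSF6-OE the log2 fold change of IFI44 was -1.96 ± 0.596 (adjusted p = 0.172 by edgeR and 0.0214 by DESeq2). Control itself spread from 6.65 to 28.8 CPM in IFI44L.

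IFI6, a mitochondrial protein that opposes apoptosis, was at 4.36, 2.603 and 3.82 CPM in SRSF2-OE, 2.13 and 2.001 in SRSF4-OE, 2.06 and 0.366 in SRSF6-OE, 2.46, 1.91 and 2.64 in SRSF9-OE, 3.83 and 4.87 in TRA2B-OE, and 4.76 and 2.53 in Control. Both SRSF6-OE libraries and both SRSF4-OE libraries were below Control, and its log2 fold change in SRSF6-OE was -1.698 ± 0.56 (adjusted p = 0.182 by edgeR and 0.0398 by DESeq2). LGALS3BP, a secreted glycoprotein, was at 209, 253 and 171 CPM in SRSF2-OE, 235 and 241 in SRSF4-OE, 174 and 67.98 in SRSF6-OE, 177, 144 and 215 in SRSF9-OE, 151 and 154 in TRA2B-OE, and 104 and 173 in Control. SRSF4-OE was above both Control libraries, SRSF2-OE overlapped with the upper one, and no contrast passed a test.

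Across the 14 libraries the members did not rise and fall as 1 block. Over the 903 pairs of the 43 members, the median Pearson correlation of log2(CPM + 0.5) was 0.21, with 117 pairs over 0.7 and 281 pairs (31.1%) under 0. These are descriptions over libraries that share groups, label set and depth, and the same values over all genes are not given here. The pairs include sparse members, such as RTP4 and RSAD2 at means of 0.0677 and 0.168 CPM. Those 2 held 65 and 187 counts over all libraries, so counting error weighs on their correlations. The most alike pairs were IFI44 with IFI44L (r = 0.98), IRF1 with IFIT2 (0.94), DDX60 with SAMD9L (0.93) and ISG15 with IFI6 (0.92). OAS3 had the most opposed pattern, with a median r of -0.34 with the other members and r of -0.80 with IFI44. IFIT3 had the highest median r, 0.57, followed by PARP9 at 0.56 and IFIT2 at 0.52.

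Other interferon-induced genes outside the 45 were counted as well. Of 20 listed, 14 were tested, of which 10 to 12 were lower in each contrast and 0 were called by edgeR. DESeq2 called DTX3L and TDRD7, lower, in SRSF2-OE and UBE2L6, the conjugating enzyme for ISG15, lower in SRSF6-OE (adjusted p = 0.0321). UBE2L6 stood at 2.26 to 28.3 CPM in OE libraries and 27.002 and 35.97 CPM in Control libraries. Chemokine genes that mark a strong interferon response were near 0, with CXCL10 at or under 0.39 CPM and CXCL9 at 0.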

How the data were processed

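RNA from 18 samples was sequenced as stranded mRNA libraries with paired 101-base reads, per the labels' protocols. The authors deposited raw counts per gene, not normalised. The submitters' processing notes name the build GRCh37, STAR 2.5.1b, featureCounts, Trimmomatic 0.36 and Subread, with no role or order. Strand use, and whether reads or pairs were counted, are not given in the sources. Symbols came from GENCODE 29, matched by gene ID (55951 of 60252 IDs); IDs without a name took 0.152% to 0.193% of counts. Lanes of a library were summed, because lane pairs differed far less (mean chi-square per gene 3.82 to 9.06) than other pairs of a group (58.8 to 318).

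TMM normalisation and filterByExpr (minimum count 10) preceded the tests of 21326 genes. EdgeR 4.0.16 (R 4.3.3) fitted all 6 groups with a label set term and 7 residual degrees of freedom; calls had a Benjamini-Hochberg adjusted p below 0.05. Standard errors are the fold change over the root of F. DESeq2 1.42.0 and limma 3.58.1 were alternatives, and DESeq2 gave no adjusted p for some sparse members. Fits were run on simulated counts with known large changes in more abundant genes. Those runs do not show how often smaller changes or sparse members would be called.

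Values per library are given for 22 members: those called by either tool, the 3 smallest p per comparison, the 5 highest per kb and the 3 widest ranges. ISG15, HERC5, USP18, IFIT1, IFIT2, IRF1 and other members were named after their values were seen. Members and lists were chosen with earlier results of these data known. Limits set by a count of 0 (3 counts) cover counting error only. IKBKE, a listed relay gene, was not matched. Some genes of the lists are not reported here.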

Additional observations from a re-analysis of the deposited data

Results flagged for a closer look

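For 2 members, 1 OE group lay wholly above and another wholly below both Control libraries, as for 6.93% of all genes. DDX58 averaged 10.02 CPM in the libraries labelled SRSF6-OE, above both Control libraries, while all 3 SRSF2-OE libraries (4.96 to 5.55 CPM) and all 3 SRSF9-OE libraries (6.49 to 7.66 CPM) lay below both Control libraries (8.93 and 7.73 CPM). USP18 averaged 1.9998 CPM in SRSF9-OE and 2.55 CPM in TRA2B-OE, above both Control libraries, while both SRSF6-OE libraries (1.41 and 0.732 CPM) lay below them (1.499 and 1.81 CPM). The difference between these pairs of groups was not tested directly. The F test over the 5 OE groups gave adjusted p = 0.582 for DDX58 and 0.473 for USP18 by edgeR's quasi-likelihood test.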

How the results depend on the processing

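EdgeR with the 14 libraries called 0 members in all 7 comparisons. DESeq2 called 2 in SRSF2-OE, 9 in SRSF6-OE, 1 in TRA2B-OE, 2 over the OE groups and 5 in the F test. With the 18 samples as separate replicates, which counts lanes as replicates, edgeR called 4 in SRSF2-OE (6.4% of all genes), 8 in SRSF4-OE (16.5%), 12 in SRSF6-OE (19.2%), 0 in SRSF9-OE (0.0238%), 6 in TRA2B-OE (13.8%), 14 over the OE groups (18.2%) and 6 in the F test (4.76%). With only the groups compared, 7 were called in SRSF4-OE (12.2% of all genes); the cause was not tested. Leaving out each library gave 0 to 1 called members in SRSF2-OE and in the F test, and 0 in the other comparisons. Leaving out SRSF2-OE replicate 1 together with TRA2B-OE replicate 3 also gave 1, HERC5, in each of those 2 (0.207% and 0.256% of all genes). limma-voom, DESeq2 size factors, no label set term and no filter on low counts called 0 members. The replicate numbers did not pair the libraries: same-number deviations correlated between -0.51 and 0.54 (31 pairs), and with the replicate block 0 members were called in every comparison. The median log2 fold change of the members stayed below 0 under all 25 settings in SRSF2-OE, SRSF4-OE, SRSF6-OE and SRSF9-OE, and under 24 of 25 in TRA2B-OE. For 24 values of named members, 537 alternatives kept direction and call, 34 passed the threshold and 0 reversed. Within the label set of 10 libraries with numbers, a fit chosen after seeing the data (4 residual degrees of freedom, 1 Control library, assumed to vary like the others) called 0 members in all 7 comparisons, with medians from -1.29 (SRSF6-OE) to -0.18 (TRA2B-OE). Without the label set term the median in SRSF9-OE was -0.49. Members with few counts, such as RTP4, MX2 and XAF1, are limited by depth.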
